A study of Mus musculus with 12 samples.

Results

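Genes of respiratory complexes I, II and III were followed through fat cell differentiation in a white and a brown mouse cell line. The members were all genes with a symbol starting with Nduf or Uqcr, together with Sdha, Sdhb, Sdhc and Sdhd. Each was measured by probe sets that the platform annotation assigns to 1 gene, and the probe set with the highest mean stood for the gene. This rule found 56 of the 18194 genes so measured, with 113 probe sets among them. The members were 36 genes named as complex I subunits, 8 complex I assembly factors (Ndufaf1 to Ndufaf8), 4 complex II genes and 8 complex III genes. The 36 complex I subunits included 6 genes of its catalytic core, which are not the whole core. Ndufa4 and Ndufa4l2 are grouped with complex I by their symbols, although the Ndufa4 protein is now regarded as a component of cytochrome c oxidase.

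Total RNA was hybridised to 12 Affymetrix expression arrays, 3 for each of 4 groups. White preadipocytes were 3T3-L1 cells, a mouse fibroblast line that can be turned into fat cells, taken at day 0, and white adipocytes were 3T3-L1 cells at day 10. Brown preadipocytes were brown fat cells, labelled BFC with no further line name, at day 0, and brown adipocytes were the same line at day 8. Day 0 was 2 days after confluence in both lines. White cells were then induced for 3 days with insulin at 1 µg/mL, the glucocorticoid dexamethasone at 1 µM and the phosphodiesterase inhibitor IBMX at 0.5 mM. They had insulin alone for 2 more days and medium with 10% serum afterwards. Serum was given as 10% for all 4 groups, day 0 included. Brown cells were induced for 3 days with the same doses of dexamethasone and IBMX, 20 nM insulin, 125 µM indomethacin and 1 nM of T3, the thyroid hormone triiodothyronine, and then had insulin with T3 until day 8. Line, inducing mixture, medium and day of harvest differed together between white and brown adipocytes, and their parts in a difference cannot be told apart. The labels do not say whether the 3 samples of a group came from separate cultures, so p-values measure only the spread between these samples.

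Complex I takes electrons from NADH, complex II takes them from succinate, and both pass them through ubiquinone to complex III, which hands them to cytochrome c. Complexes I and III pump protons as they do so, and the resulting gradient drives ATP synthesis or, in brown fat, is released as heat through the uncoupling protein. Fat cells gain mitochondria as they differentiate, and brown adipocytes are known for a dense respiratory chain.

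The deposited values were linear signals, scaled on every array to the same trimmed mean, and differences are given as log2(signal + 16). Signals of different probe sets are not comparable with each other, so each gene was compared only with itself across groups. A gene was called when the limma test, adjusted over all 13746 genes tested, gave a p under 0.05, and all 56 members were among the genes tested. The members varied little between arrays of a group, with median coefficients of variation of 4.52% in white preadipocytes, 5.06% in white adipocytes, 4.85% in brown preadipocytes and 2.22% in brown adipocytes. The summed signal of 6 adipocyte markers was 8510 to 9343 in white preadipocytes, 108070 to 121761 in white adipocytes, 45340.1 to 53771 in brown preadipocytes and 84458 to 87723 in brown adipocytes. The cells labelled brown preadipocytes therefore already carried adipocyte transcripts, including Adipoq, the gene of the hormone adiponectin, at 18695 ± 2319 (SD, n = 3). The summed signal of 6 brown fat markers was 102 to 135, 189 to 302, 571 to 604 and 8702 to 9852 in the same order of groups. The summed signal of 5 preadipocyte markers, of which 4 passed the filter, was 8882 to 10700 in white preadipocytes, 3664 to 4298 in white adipocytes, 6683 to 7345 in brown preadipocytes and 284 to 307 in brown adipocytes. This sum was lower after differentiation in both lines and lowest in brown adipocytes. None of 4 endothelial markers passed the filter on low signals. Of 7 macrophage markers 4 passed it, with a summed signal of all 7 of 1035 to 1192 in white preadipocytes, 710.1 to 787 in white adipocytes and 275 to 328 in both brown groups. Of 7 skeletal muscle markers 4 passed it, with a summed signal of 333 to 484 and 994 to 1008 before and after white differentiation and of 306 to 397 and 461 to 579 before and after brown differentiation. The part of these cell type markers in the results was not tested.

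Both lines raised most members as they became fat cells. In white cells 46 of the 56 members were called higher in adipocytes than in preadipocytes, beside 30.0% of all genes tested, and 2 members were called lower, beside 31.2%. In brown cells 53 members were called higher, beside 27.2% of all genes tested, and 0 were called lower by limma, beside 31.5%. All 56 brown differences were above 0, so that none was lower at an unadjusted p under 0.05 either. The members had a median difference of 0.86 in the white line, beside 0.02 for all genes tested, and of 0.94 in the brown line, beside -0.03. A rise of at least 2-fold was called for 23 members in white cells (13.2% of all genes) and for 24 in brown cells (9.65%). The medians were highest in complexes II and III and in the complex I core and lowest among the assembly factors.

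The ratio of 3' to 5' signal of the actin control, a measure of RNA integrity and amplification, moved with differentiation as well. It was 1.40 ± 0.0554 (SD, n = 3) in white preadipocytes, 2.25 ± 0.151 in white adipocytes, 1.49 ± 0.0626 in brown preadipocytes and 2.42 ± 0.0478 in brown adipocytes. The same ratio of Gapdh lay between 0.750 and 0.899 on all 12 arrays, and the part of this in the members' rise was not tested. In bulk RNA, fewer cells of a type and less RNA per cell cannot be told apart. Scaling the arrays on the spiked hybridization controls instead moved the median of all genes to -0.22 in white and -0.24 in brown cells. It also moved the share of higher among all calls from 49.1% to 34.4% in white and from 46.3% to 30.3% in brown cells. Under that scaling 38 members were higher and 5 lower in white cells, and 46 were higher and 0 lower in brown cells.

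**Figure D1:**
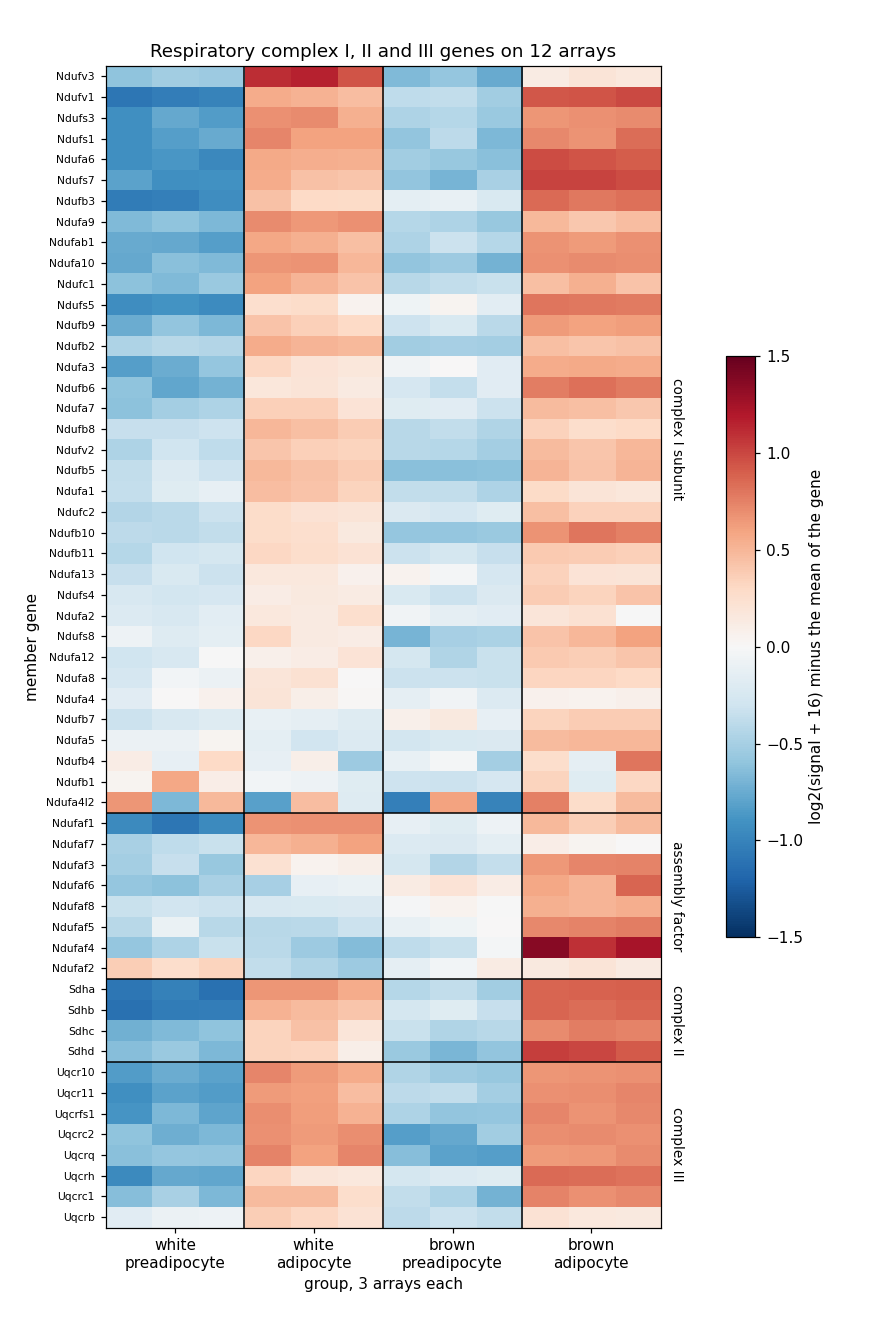
Each line is 1 of the 56 members and each column 1 of the 12 arrays; colour gives log2(signal + 16) minus the mean of the gene over all arrays. Adipocyte arrays are red and preadipocyte arrays blue for most genes. Ndufaf2, Ndufaf4, Ndufaf5, Ndufa5, Ndufb1 and the dim genes Ndufb4 and Ndufa4l2 depart from that.

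Over the 12 arrays, the first principal component of the 56 members held 83.7% of their variance and placed white preadipocytes lowest (-4.64 to -4.28), then brown preadipocytes (-2.91 to -2.55), white adipocytes (2.32 to 3.00) and brown adipocytes (4.29 to 4.45). The groups did not overlap on it. The second component, with 8.57%, held white adipocytes at one end (-1.93 to -1.65) and brown adipocytes at the other (1.19 to 1.53).

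The 6 catalytic core genes of complex I measured here rose in both lines, all called higher, with median differences of 1.41 in white and 1.23 in brown cells. Ndufv1 encodes the flavin-carrying subunit that binds NADH and lies at chr19:4007499-4012755 (GRCm38). Its signal was 3823, 3973 and 4051 in white preadipocytes, 11968, 11656 and 11212 in white adipocytes, 6236, 6296 and 5658 in brown preadipocytes, and 15511, 15724 and 16130.0 in brown adipocytes. The 4 groups did not overlap, and the brown groups lay above their white counterparts. The change of Ndufv1 was 1.55 (SE 0.0615, adjusted p = 7.98e-09) in white cells, the steepest of these 6, and 1.38 (adjusted p = 2.93e-08) in brown cells. Ndufs1, the large iron-sulfur subunit, changed by 1.48 (SE 0.0867, adjusted p = 1.41e-07) and 1.30 (adjusted p = 5.42e-07). Ndufs3, a subunit of the arm that leads to ubiquinone, changed by 1.48 (SE 0.0691, adjusted p = 2.56e-08) and 1.17 (adjusted p = 2.2e-07).

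Ndufs7 and Ndufs8 carry the last iron-sulfur clusters before ubiquinone. Ndufs7 went from 3893, 3602 and 3619.9 to 9996, 9238 and 9064 in white cells and from 4498, 4184 and 4868 to 13766, 13810.2 and 13473 in brown cells. Adipocyte arrays of each line all lay above its preadipocyte arrays, with changes of 1.34 (SE 0.0713, adjusted p = 6.81e-08) and 1.60 (adjusted p = 2.96e-08), the second being the largest brown rise among complex I subunits. The gap between these changes, 0.25, was not called (adjusted p = 0.0588). Ndufs8 went from 9425, 8708 and 8994 to 12361, 10921 and 10777 in white cells, and from 6135, 7038 and 7185 to 13366, 14075 and 15071 in brown cells. Its white rise of 0.33 (SE 0.0854, adjusted p = 0.007) was the smallest of these 6 and its brown rise was 1.06 (adjusted p = 2.09e-06), so that the changes differed by 0.74 (SE 0.121, adjusted p = 0.000548). On the other 5 Ndufs8 probe sets this difference ran from -0.28, on the dimmest, to 0.72. It was 0.34 and 0.27 on those nearest in brightness. Ndufv2, the partner of Ndufv1, changed by 0.75 (adjusted p = 2.01e-06) and 0.92 (adjusted p = 5.82e-07).

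The other genes named as complex I subunits mostly encode accessory proteins that surround the core, apart from Ndufa4 and Ndufa4l2. Of these 30 genes, 24 were called higher and 1 lower in white cells, with a median of 0.68, and 28 were called higher in brown cells, with a median of 0.74. Ndufa6, which anchors an acyl carrier protein to the complex, stood at 5548, 5771 and 5406 in white preadipocytes and 15599.6, 15384 and 15221 in white adipocytes. In the brown line it stood at 7375, 7122 and 6827 before and 20823, 20334 and 19805 after differentiation. The groups did not overlap, and the change was 1.46 (SE 0.0555, adjusted p = 5.93e-09) in white and 1.51 (adjusted p = 7.58e-09) in brown cells. The gap between them was 0.05 (SE 0.0785), which did not pass the test (adjusted p = 0.635). Ndufab1, the mitochondrial acyl carrier protein itself, changed by 1.30 (adjusted p = 2.85e-08) and 1.07 (adjusted p = 1.74e-07). Ndufa9, Ndufb3, Ndufa10, Ndufc1, Ndufs5 and Ndufb9 were also called at least 2-fold higher in white cells.

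Ndufv3, a small subunit of the NADH-binding module at chr17:31520115-31531326, had the largest white rise among complex I subunits. It read 5793, 6126 and 6047 in white preadipocytes, 19059.9, 19645 and 17040.3 in white adipocytes, 5587, 5917 and 5226 in brown preadipocytes, and 9638, 10083 and 9832 in brown adipocytes. Every white adipocyte array exceeded every brown one, while the preadipocyte arrays of the lines overlapped. The change was 1.63 (SE 0.072, adjusted p = 1.76e-08) in white and 0.82 (adjusted p = 4.02e-06) in brown cells, a difference of -0.81 (SE 0.102, adjusted p = 9.06e-05).

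Ndufa5 went the other way in white cells. Its signal was 6609, 6594 and 7262 in white preadipocytes, 6374, 5775 and 6121 in white adipocytes, 5817, 6010.2 and 6068 in brown preadipocytes, and 9779.9, 9946 and 9911 in brown adipocytes. White adipocyte arrays lay below white preadipocyte arrays, by little, and brown adipocyte arrays lay far above all others. The white change was -0.16 (SE 0.062, adjusted p = 0.0424) and the brown change 0.73 (adjusted p = 3.23e-06), a difference of 0.89 (SE 0.0876, adjusted p = 1.57e-05). The white call of Ndufa5 was lost without white preadipocyte replicate 3 (adjusted p = 0.15), without white adipocyte replicate 2 (0.143) or 3 (0.0744), and under other settings, with adjusted p from 0.000501 to 0.279 over all of them. The call of the difference between the lines was not lost under any setting tried.

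Ndufb10 and Ndufb5, subunits of the membrane arm, rose more in brown cells. Ndufb10 read 4913, 4889 and 5001 in white preadipocytes and 7823, 7707 and 7178 in white adipocytes. In the brown line it read 4319, 4338 and 4397 before and 10353, 11279 and 10926 after differentiation, with no overlap of any groups. Its changes were 0.61 (SE 0.0576, adjusted p = 5.32e-06) and 1.31 (adjusted p = 2.61e-08), which differed by 0.70 (adjusted p = 5.2e-05). Those of Ndufb5 were 0.73 (adjusted p = 2.27e-06) and 1.10 (adjusted p = 1.32e-07), with a difference of 0.38 (adjusted p = 0.00432).

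A few complex I genes moved little. Ndufa4 read 15056, 16898 and 17607 in white preadipocytes and 19295, 17995 and 17114 in white adipocytes, which overlap, with a difference of 0.14 (SE 0.0765, adjusted p = 0.154). Its brown difference of 0.20 (adjusted p = 0.0477) was the smallest called in complex I and lost its call under 14 of 26 settings with its sign kept. Under hybridization-control scaling, a further setting, it turned to -0.041 and was not called (adjusted p = 0.74). Ndufb7 had a white difference of 0.10 (adjusted p = 0.256) and a brown one of 0.33 (adjusted p = 0.00303). The white rise of Ndufa8, 0.27 (adjusted p = 0.0105), turned to -0.0069 under hybridization-control scaling. Ndufb1, at 426 ± 96.8 (SD, n = 3) in white preadipocytes, differed by -0.34 in white (adjusted p = 0.101) and 0.45 in brown cells (adjusted p = 0.0382, lost under 9 of 26 settings). Ndufa4l2, a relative of Ndufa4 known to be induced in hypoxia, and the measured probe set of Ndufb4 were near the floor, with group means of 23.3 to 51 and 38.7 to 64.7, and were called in neither line.

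All 4 genes of complex II, also known as succinate dehydrogenase, rose in both lines, with medians of 1.26 and 1.23. Sdha, the flavoprotein that oxidises succinate (chr13:74322255-74350240), read 3087, 3222 and 3011 in white preadipocytes, 10390.3, 10326 and 9633 in white adipocytes, 4872, 5061 and 4565 in brown preadipocytes, and 11987, 12054 and 12225 in brown adipocytes. No groups overlapped. Its white change of 1.70 (SE 0.0613, adjusted p = 4.12e-09) was the largest of the 56 members, a 3.26-fold ratio of mean signals, and its brown change was 1.32 (adjusted p = 3.92e-08). Sdhb, the iron-sulfur subunit, likewise rose more in white cells, by 1.54 (adjusted p = 9.44e-09) against 1.13 (adjusted p = 1.32e-07). The difference between the lines was -0.38 for Sdha (adjusted p = 0.00443) and -0.41 for Sdhb (adjusted p = 0.00307), and that of Sdha was 0.088 and not called (adjusted p = 0.672) when all probe sets of a gene were averaged.

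Sdhc and Sdhd anchor the enzyme in the membrane. Sdhd (chr9:50596340-50603849) read 3544, 3751 and 3472 in white preadipocytes, 6982, 6905 and 5874 in white adipocytes, 3762, 3431 and 3669.6 in brown preadipocytes, and 11359, 11119 and 10517 in brown adipocytes. The preadipocyte groups overlapped and the adipocyte groups were far apart. Its changes were 0.87 (SE 0.0794, adjusted p = 4.35e-06) in white and 1.60 (adjusted p = 6.17e-08) in brown cells, a difference of 0.73 (adjusted p = 0.00036), opposite in sign to that of Sdha and Sdhb. The changes of Sdhc were 0.98 (adjusted p = 9.64e-07) and 1.14 (adjusted p = 4.15e-07), and their difference of 0.16 was not called (adjusted p = 0.22).

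All 8 complex III genes rose in both lines as well, with medians of 1.32 in white and 1.21 in brown cells, and 7 of them at least 2-fold in each. Uqcrfs1 encodes the Rieske iron-sulfur protein that moves electrons from ubiquinol (chr13:30540312-30545316). It read 4629, 5354 and 4941 in white preadipocytes, 13850.1, 13160.4 and 12228 in white adipocytes, 6181, 5644 and 5719 in brown preadipocytes, and 14203, 13607 and 14048 in brown adipocytes. Preadipocyte arrays of both lines lay well below all adipocyte arrays, and the adipocyte arrays of the lines overlapped. Uqcrfs1 changed by 1.39 (SE 0.0745, adjusted p = 7.23e-08) and 1.25 (adjusted p = 2.26e-07). The core proteins Uqcrc1 and Uqcrc2 changed by 1.01 and 1.35 in white cells and by 1.23 and 1.40 in brown cells, the highest of these 4 adjusted p-values being 8.29e-06.

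Among the small complex III subunits, Uqcrq had the largest brown change, 1.42 (SE 0.0695, adjusted p = 5.71e-08), and a white change of 1.29 (adjusted p = 7.49e-08). Both calls of Uqcrq were lost when less specific probe sets were left out, which puts a dim probe set with group means of 50.6 to 60.2 in its place (0.23, adjusted p = 0.616, and 0.05, adjusted p = 0.913). Uqcr11 changed by 1.43 (adjusted p = 3.85e-08) and 1.13 (adjusted p = 3.25e-07), and Uqcrh, the hinge protein next to cytochrome c1, by 1.06 and 1.05. Uqcrb, a ubiquinone-binding subunit, changed least. Its signal was 24785, 26369.7 and 26534 in white preadipocytes, 36220.4, 34806 and 32647 in white adipocytes, 21338, 22375 and 21648 in brown preadipocytes, and 32473, 31251 and 30895 in brown adipocytes. Adipocyte arrays again lay above preadipocyte arrays, but by 0.42 (SE 0.0606, adjusted p = 0.000149) and 0.53 (adjusted p = 2.85e-05) only. The other Uqcrb probe set changed by 0.46 and 1.02.

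The complex I assembly factors did not move as a block. These proteins build the complex and are not part of the finished enzyme. In white cells 4 of the 8 were called higher, 1 lower and 3 not, beside 30.0% higher and 31.2% lower of all genes tested. Their median was 0.20, which turned to -0.069 under hybridization-control scaling. In brown cells 7 were called higher, beside 27.2% of all genes tested, and 1 was not called, with a median of 0.54. The change differed between the lines for 7 of the 8, by limma's test of the difference itself, beside 50.9% of all genes tested. It was larger in brown cells for Ndufaf2, Ndufaf3, Ndufaf4, Ndufaf5 and Ndufaf8 and larger in white cells for Ndufaf1 and Ndufaf7.

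**Figure D2:**
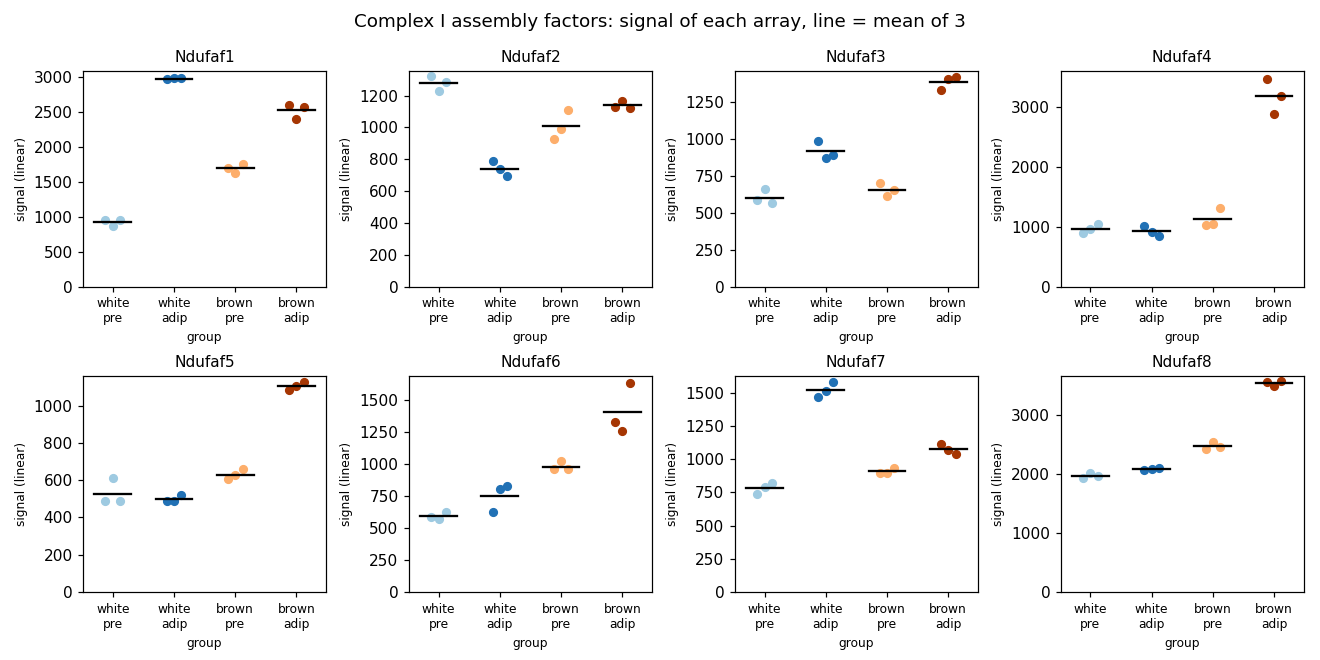
Signal (linear axis from 0) of the 8 complex I assembly factors on each of the 12 arrays, with the group mean of 3 as a line; pre is preadipocytes and adip adipocytes. Ndufaf4 and Ndufaf5 stand high in brown adipocytes only, Ndufaf1 and Ndufaf7 are highest in white adipocytes, and Ndufaf2 is lowest there.

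Ndufaf4 acts with Ndufaf3 early in building the arm that leads to ubiquinone and lies at chr4:24898083-24905001. It read 890.3, 967 and 1052 in white preadipocytes, 1008, 912 and 845 in white adipocytes, 1023, 1053 and 1307 in brown preadipocytes, and 3471, 2876 and 3176 in brown adipocytes. The brown adipocyte arrays lay far above the other 9, and the white groups overlapped. The white difference was -0.07 (SE 0.117, adjusted p = 0.624) and the brown one 1.48 (adjusted p = 1.76e-06), so that the changes differed by 1.56 (SE 0.165, adjusted p = 2.67e-05), the largest such difference among members called. The second Ndufaf4 probe set had differences of 0.28 in white and 2.02 in brown cells. Ndufaf3 changed by 0.59 (adjusted p = 9.6e-05) and 1.06 (adjusted p = 1.41e-06), with a difference of 0.47 between the lines (adjusted p = 0.0059).

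Ndufaf5, an enzyme that hydroxylates Ndufs7, and Ndufaf8, its partner, also moved mainly in brown cells. Ndufaf5 read 488, 609 and 485 in white preadipocytes, 487, 489 and 521 in white adipocytes, 604, 625 and 659 in brown preadipocytes, and 1085, 1105 and 1127 in brown adipocytes. The white groups overlapped (difference -0.07, adjusted p = 0.517) and the brown groups did not (0.80, SE 0.0873, adjusted p = 2.15e-05), with a difference of 0.87 between the changes (adjusted p = 0.000208). Ndufaf8 differed by 0.08 in white (adjusted p = 0.194) and rose by 0.52 in brown cells (adjusted p = 8.22e-06). Ndufaf6 rose by 0.32 (adjusted p = 0.0441) in white cells, where the groups overlapped, and by 0.51 (adjusted p = 0.00491) in brown cells. Its white call was lost under 14 of 26 settings, with adjusted p from 0.0056 to 0.8.

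Ndufaf2, a factor that joins late and resembles the subunit Ndufa12, was the only assembly factor called lower in white cells. It read 1324, 1231 and 1288 in white preadipocytes, 786, 741 and 693 in white adipocytes, 926, 992 and 1109 in brown preadipocytes, and 1129.9, 1167 and 1121 in brown adipocytes. White adipocyte arrays were the lowest of all 12. The white change was -0.78 (SE 0.0775, adjusted p = 8.33e-06), the brown difference 0.18 (adjusted p = 0.0752), and the gap between them 0.96 (adjusted p = 4.66e-05).

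Ndufaf1, part of the assembly complex for the membrane arm (chr2:119655446-119662839), showed the opposite order. It read 949, 867 and 949 in white preadipocytes, 2970.2, 2987 and 2985 in white adipocytes, 1695, 1629 and 1762 in brown preadipocytes, and 2607, 2402 and 2575 in brown adipocytes. No groups overlapped, and brown cells started higher and ended lower than white cells. The changes were 1.68 (SE 0.0621, adjusted p = 4.91e-09) and 0.57 (adjusted p = 2.03e-05), which differed by -1.11 (SE 0.0878, adjusted p = 3.4e-06). Ndufaf7, a methyltransferase, changed by 0.94 (adjusted p = 3.47e-07) and 0.24 (adjusted p = 0.00757), with a difference of -0.71 (adjusted p = 8.02e-05).

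Promoter windows were read for 47 of the 56 members from RefSeq (build GRCm38.p6), 49 windows in all, each with 250 bases before the gene's start. Motifs were searched on both strands as exact letters. The core CCGGAAG of sites bound by ETS factors such as Gabpa lay in 8 of the 49 windows (16.3%) and in 6.91% of all 32851 windows. CGCATGCG, the core of the site of Nrf1, lay in 2 windows (4.08%, all windows 1.55%), beginning 112 bases before the start in Ndufaf4 and 9 in Ndufa8. AAGGTCA, the core of the site of estrogen-related receptors, lay in 3 (6.12%, all 4.08%) and AAGATGGC of Yy1 in 0 (all 1.56%). None of these motifs overlapped another in the printed windows. The windows of Ndufaf4 and Ndufaf1 are shown because these genes changed most differently in the lines, and those of Ndufs3 and Sdhd because they hold the ETS core, on the gene's strand or the other. Capitals mark the match, each window is written along its gene, and a match is a description of letters and not a bound site.
Ndufaf4: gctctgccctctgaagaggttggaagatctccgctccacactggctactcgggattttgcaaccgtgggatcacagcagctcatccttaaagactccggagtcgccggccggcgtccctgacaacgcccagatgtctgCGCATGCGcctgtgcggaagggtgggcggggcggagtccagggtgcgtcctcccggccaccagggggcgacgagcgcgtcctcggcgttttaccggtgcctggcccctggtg
Ndufaf1: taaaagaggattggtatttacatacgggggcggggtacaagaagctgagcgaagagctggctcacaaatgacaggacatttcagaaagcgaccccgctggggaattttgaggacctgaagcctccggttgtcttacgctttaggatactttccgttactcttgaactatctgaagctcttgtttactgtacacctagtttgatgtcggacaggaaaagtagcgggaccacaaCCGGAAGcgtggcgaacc
Ndufs3: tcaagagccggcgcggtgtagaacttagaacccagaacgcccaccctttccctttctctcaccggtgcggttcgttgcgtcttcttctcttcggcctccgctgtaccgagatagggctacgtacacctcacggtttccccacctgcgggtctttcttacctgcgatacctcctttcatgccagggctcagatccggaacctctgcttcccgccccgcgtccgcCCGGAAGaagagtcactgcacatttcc
Sdhd: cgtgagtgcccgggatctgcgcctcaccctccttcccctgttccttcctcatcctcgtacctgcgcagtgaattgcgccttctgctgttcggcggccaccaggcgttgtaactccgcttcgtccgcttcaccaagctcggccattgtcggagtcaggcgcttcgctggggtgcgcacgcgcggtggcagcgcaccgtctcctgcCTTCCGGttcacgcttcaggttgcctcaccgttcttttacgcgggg
The windows are chr4:24897833-24898082 on the plus strand for Ndufaf4, chr2:119662835-119663084 on the minus strand for Ndufaf1, chr2:90904722-90904971 on the minus strand for Ndufs3, and chr9:50603850-50604099 on the minus strand for Sdhd. The ETS core begins 18 bases before the start in Ndufaf1, 27 in Ndufs3 and 46 in Sdhd, where it lies on the other strand. The other windows with it were those of Ndufaf8, Ndufb6, Ndufb7, Uqcr11 and Uqcrh.

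The difference between the lines in the change with differentiation was tested for every member. It was called larger in brown cells for 14 members, beside 23.6% of all genes tested, and larger in white cells for 13, beside 27.4%, which for the members as a whole is close to the background. The median difference was 0.05, beside -0.05 for all genes. In complex I subunits 8 were larger in brown and 7 in white cells, and in complex III 0 and 2. With the arrays set to equal medians, 20 were larger in brown and 6 in white cells, beside 3696 and 3135 of all 13746 genes. Without white adipocyte replicate 1 the count of those larger in white cells was 8, beside 3530 of 13597 genes. Over the 56 members, the changes in the lines correlated at Pearson 0.57 and Spearman 0.58, beside 0.48 and 0.47 over all genes tested. These are correlations across genes that share the same arrays and scaling, and genes are not independent replicates. Over the 8 assembly factors alone the Pearson value was -0.04. It was -0.41 over the 4 complex II genes, 0.64 over the 36 complex I subunits and 0.84 over the 8 complex III genes, whose Spearman value was 0.26.

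**Figure D3:**
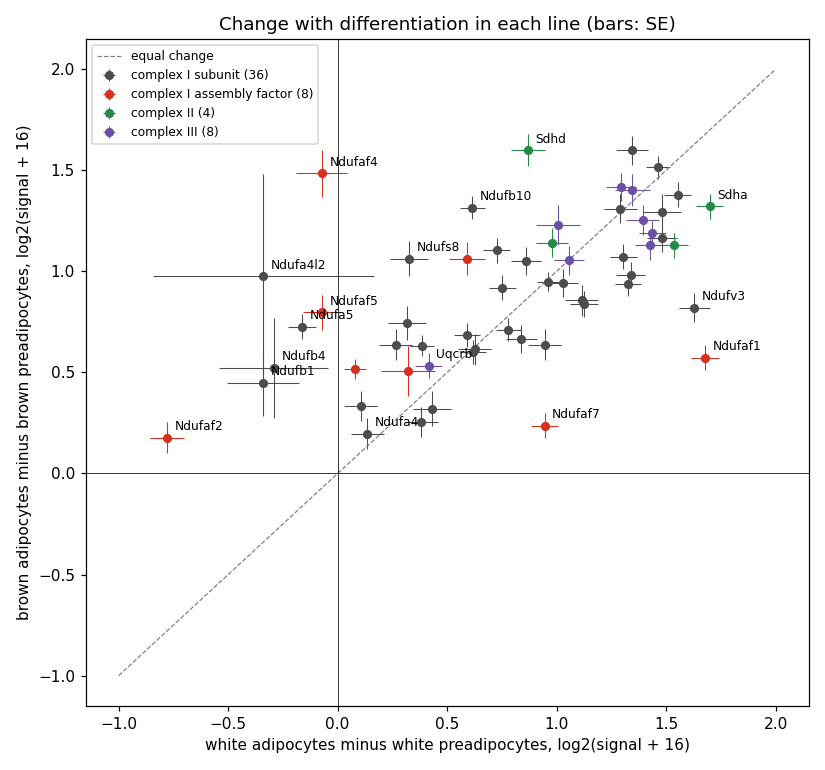
Change with differentiation of each of the 56 members in white cells (x axis) and brown cells (y axis), both on log2(signal + 16), with SE bars and a dashed line of equal change. Most genes lie in the upper right; Ndufaf4, Ndufaf5, Ndufaf2 and Ndufa5 lie left of the line and Ndufaf1, Ndufaf7 and Ndufv3 right of it.

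After differentiation, brown adipocytes were called higher than white adipocytes for 27 members, beside 30.0% of all genes tested, and lower for 4, beside 29.5%. The median difference was 0.25, beside 0.00 for all genes. At least 2-fold higher were 2 members, Ndufaf4 and Ndufaf5, beside 11.8% of all genes tested. The count of members higher depended on scaling. After quantile normalization it was 42, with 3 lower, beside 3870 higher and 4412 lower of all 13746 genes. With equal medians it was 20, with 8 lower, beside 3552 higher and 4628 lower of all genes. The median of all genes moved from 0.00 to -0.06 after quantile normalization and to -0.11 with equal medians. This comparison shares its arrays with those above. Preadipocyte markers moved with it: 3 of the 4 tested were lower in brown adipocytes, with a median of -2.20, and summed to 284 to 307 against 3664 to 4298 in white adipocytes. The part of this in the result was not tested. Complex II was higher in brown adipocytes throughout, by 0.74 for Sdhd (SE 0.0794, adjusted p = 1.71e-05), 0.42 for Sdhc (adjusted p = 0.000588), 0.39 for Sdhb (adjusted p = 0.000294) and 0.26 for Sdha (adjusted p = 0.00422). Before induction 3 of the 4 were already called higher in brown cells, beside 31.1% of all genes tested, with a median of 0.44 against 0.41 in adipocytes. That earlier offset was 0.80 for Sdhb, 0.63 for Sdha, 0.26 for Sdhc and 0.01 for Sdhd, which was not called.

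In complex III, 2 of the 8 were called higher in brown adipocytes, beside 30.0% of all genes tested, and 0 lower, beside 29.5%. Uqcrh read 14753, 13405 and 13261 in white and 21434, 21180.0 and 20793 in brown adipocytes, groups that did not overlap, with a difference of 0.62 (SE 0.0696, adjusted p = 2.59e-05). Uqcrc1 differed by 0.31 (adjusted p = 0.0206). Of the 36 complex I subunits, 15 were called higher and 2 lower, beside the same shares of all genes. The 15 ran from Ndufa5 at 0.70 (SE 0.062, adjusted p = 4.3e-06) and Ndufb6 at 0.63 (adjusted p = 2.18e-05) down to Ndufc2 at 0.15 (adjusted p = 0.0483). The call of Ndufc2 was lost under 17 of 26 settings, with adjusted p up to 0.633. The 2 subunits called lower in brown adipocytes were Ndufv3, at -0.91 (SE 0.072, adjusted p = 1.76e-06), and Ndufa9, at -0.23 (adjusted p = 0.00506).

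Among assembly factors all 8 were called, with a median of 0.69. In brown adipocytes 6 were higher, beside 30.0% of all genes tested, and 2 lower, beside 29.5%. Ndufaf4 was higher by 1.77 (SE 0.117, adjusted p = 4.59e-07), a ratio of mean signals of 3.44, and Ndufaf5 by 1.12 (adjusted p = 1.56e-06), a ratio of 2.22. Ndufaf6, Ndufaf8, Ndufaf2 and Ndufaf3 were higher by 0.89, 0.76, 0.61 and 0.59. Ndufaf7 was lower, at -0.50 (SE 0.062, adjusted p = 5.34e-05), and so was Ndufaf1, at -0.24 (adjusted p = 0.00726).

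**Figure D4:**
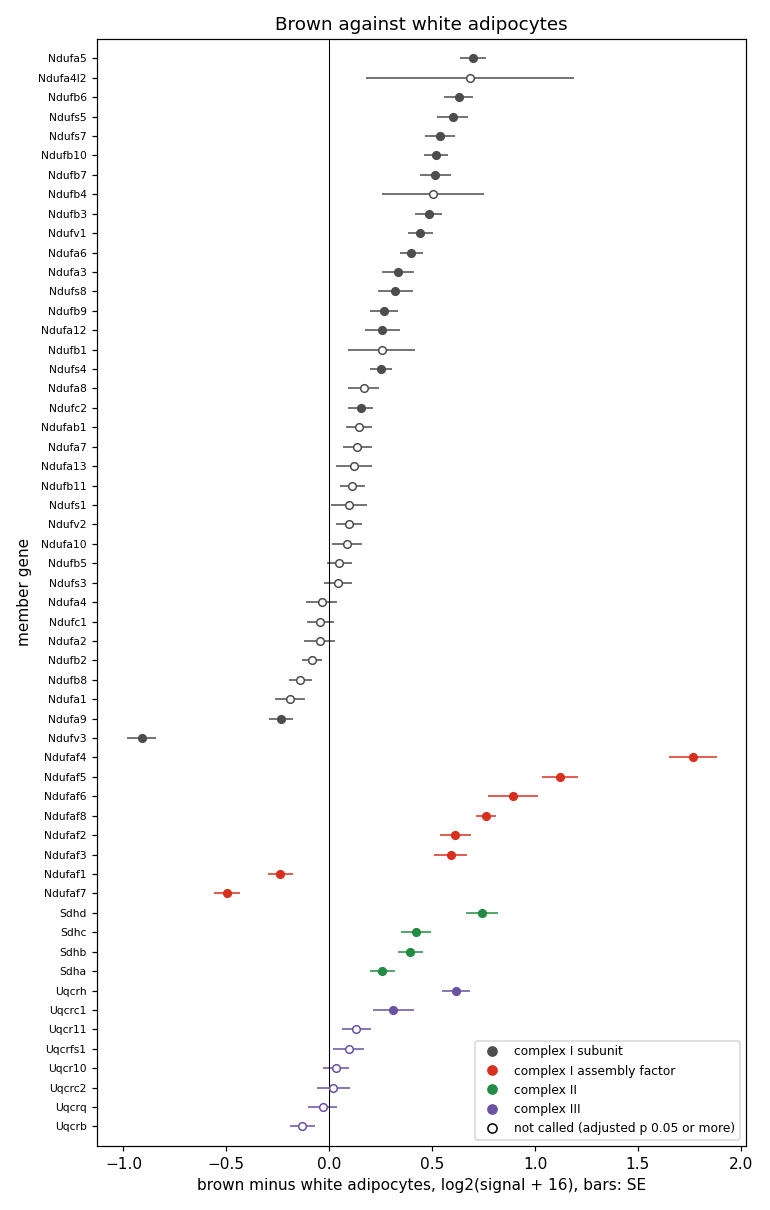
Brown minus white adipocytes for each member on log2(signal + 16), with SE bars, sorted within each complex; filled points were called and open points were not. The assembly factors spread furthest, from -0.50 to 1.77, the complex II genes all lie above 0, and Ndufv3 is the lowest point at -0.91.

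Before induction, 29 members were called higher in brown than in white preadipocytes, beside 31.1% of all genes tested, and 8 lower, beside 23.8%. The median was 0.19, beside 0.07 for all genes. The direction of this offset depended on scaling: with equal medians 11 members were higher and 20 lower, the median of the members was -0.033 and that of all genes -0.15, and the share of higher among calls over all genes fell from 56.7% to 38.2%. Hybridization-control scaling took that share to 65.7%, with 30 members higher and 2 lower. Adipocyte markers differed between these groups too, as given above, and their part in the result was not tested.

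The genes with the largest offsets kept their sign under each scaling. Ndufaf1 was higher in brown preadipocytes by 0.87 (SE 0.0621, adjusted p = 1.29e-06), Ndufs5 by 0.86 (adjusted p = 5.59e-06), Ndufb3 by 0.84 (adjusted p = 2.39e-06) and Sdhb by 0.80 (adjusted p = 2.33e-06). Ndufs5 read 3273, 3356 and 3233 in white preadipocytes, 5943, 6403 and 5581 in brown preadipocytes, 7407, 7579.5 and 6469 in white adipocytes, and 10937, 10811 and 10700.4 in brown adipocytes, so that brown cells lay above white ones at both stages. Uqcrh also lay above at both stages, by 0.62 each time. The 8 called lower were Ndufb1 (-0.53), Ndufs8 (-0.42), Ndufaf2 (-0.34), Ndufb5 (-0.33), Uqcrb (-0.25), Ndufa8 (-0.20), Ndufa5 (-0.19) and Ndufb10 (-0.18), the highest adjusted p among them being 0.0418. The call was lost under 16 of 26 settings for Ndufa8, 7 of 25 for Ndufb10, 6 of 26 for Ndufa5 and 3 or fewer for the other 5. Other probe sets of Ndufs8 gave offsets from -0.20 to 0.14. Ndufa9 (0.16), Ndufaf7 (0.21) and Ndufc2 (0.17) were called higher and lost that call under 15, 4 and 8 settings with the sign kept. With equal medians, a further setting, they changed sign to -0.067, -0.012 and -0.053 and were not called.

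The 30 members with several probe sets allowed the same gene to be read more than once. Of 57 other probe sets, 47 were above the filter level on all 12 arrays, for 28 genes. Their sign matched that of the chosen probe set for 43 of 47 in white and 47 of 47 in brown differentiation, 36 for the difference between the lines, 38 for adipocytes and 34 for preadipocytes. The widest gap was in Uqcr10, a small subunit of complex III at chr11:4701968-4704344. Its chosen probe set read 13056, 12238 and 11586 in white and 12444, 12548 and 12659 in brown adipocytes, which overlap. The second probe set read 112, 123 and 102 in white and 2677, 2760 and 2621 in brown adipocytes, and 36.9, 49.1 and 42.4 in white and 685, 740.2 and 776 in brown preadipocytes.

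All brown arrays thus exceeded all white arrays on that probe set, with a brown minus white difference of 4.40 in adipocytes and 3.68 in preadipocytes, and of 3.44 and 2.68 on the third. On the chosen one the differences were 0.03 and 0.28. The files give no probe positions, and the reason for the disagreement was not tested. All 3 probe sets rose with differentiation in both lines. Without the less specific probe sets, the difference between the lines in the change of Uqcr10 turned from -0.25 (adjusted p = 0.0377) to 0.73 (adjusted p = 0.00113), and with the mean of all probe sets it was 0.41 (adjusted p = 0.0149). It was thus called in the opposite direction under both. Ndufs4, Ndufa12, Sdhd and Ndufs8 had gaps of 1.57, 0.93, 0.75 and 0.73 between probe sets in adipocytes.

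**Figure D5:**
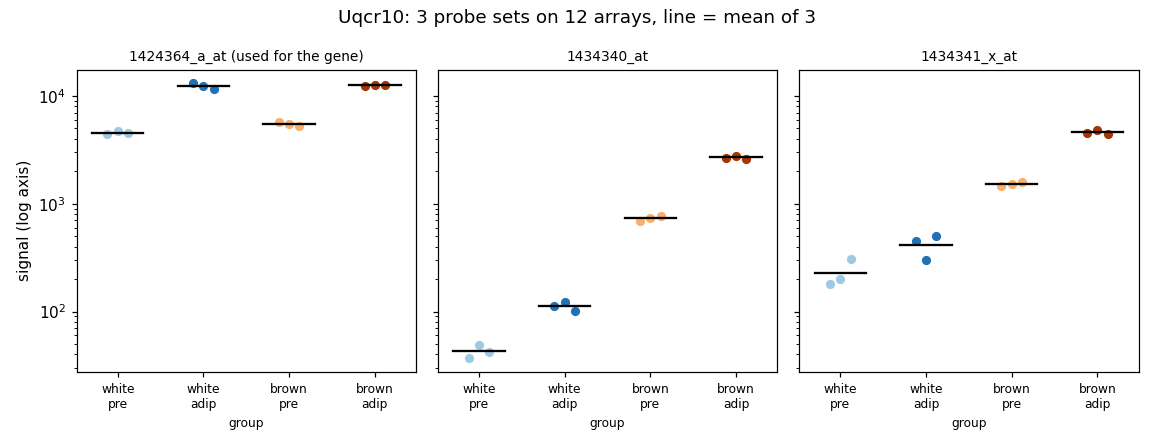
Signal (log axis) of the 3 Uqcr10 probe sets on each of the 12 arrays, with the mean of 3 as a line; pre is preadipocytes and adip adipocytes. The probe set used for the gene overlaps between white and brown adipocytes, while the other pair is far higher in the brown line at both stages.

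Other genes that serve these complexes were taken from lists chosen with the member rule. Their counts stand beside the shares of all genes tested, 30.0% higher and 31.2% lower in white differentiation. The shares were 27.2% and 31.5% in brown differentiation, and 30.0% and 29.5% for brown against white adipocytes. Of 9 further complex I assembly factors measured, 7 were higher in white cells, and 7 were higher and 1 lower in brown cells. Foxred1 rose by 1.91 (SE 0.083, adjusted p = 1.5e-08) and 1.71 (adjusted p = 4.97e-08). Tmem186, which works with Ndufaf1, was at 300.5 ± 57.1 (SD, n = 3) before and 305 ± 31.3 after differentiation in white cells, and it rose by 1.21 (adjusted p = 2.25e-05) in brown cells. Lyrm2 rose by 0.69 (adjusted p = 7.88e-06) in white and fell by 0.67 (adjusted p = 1.3e-05) in brown cells.

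Of 4 complex II assembly factors, 3 were lower in brown than in white adipocytes and 1 was higher, whereas the complex II genes themselves were all higher. Sdhaf3 differed by -1.31 (SE 0.086, adjusted p = 4.36e-07), Sdhaf4 by -1.22 (adjusted p = 1.33e-06) and Sdhaf2 by -0.91 (adjusted p = 4.03e-07), while Sdhaf1 was higher by 0.38 (adjusted p = 0.000889). Of 7 genes of complex III without a Uqcr symbol, 4 were higher and 1 lower in white cells, and 5 and 1 in brown cells. Cyc1, the cytochrome c1 subunit, rose by 1.44 (adjusted p = 5.68e-07) and 1.24 (adjusted p = 2.22e-06), and the assembly factor Uqcc2 fell by 0.79 (adjusted p = 1.52e-06) and 0.20 (adjusted p = 0.017).

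Genes that feed or follow the complexes mostly rose too. Of 7 electron carriers and other quinone reducers, 6 were higher and 1 lower in white cells and all 7 higher in brown cells. The exception was Gpd2, the mitochondrial glycerol phosphate dehydrogenase, which read 2454 ± 65.1 (SD, n = 3) and 1289 ± 91.8 in white and 888 ± 86.8 and 6258 ± 91.0 in brown cells. It fell by 0.92 (adjusted p = 2.92e-06) in white and rose by 2.80 (adjusted p = 1.56e-09) in brown cells. Cycs, cytochrome c, rose by 0.71 (adjusted p = 9.09e-06) and 1.20 (adjusted p = 2.21e-07). Of 11 ubiquinone synthesis genes, 9 were higher and 1 lower in white cells and 10 higher in brown cells, led by Coq8a at 3.69 (adjusted p = 3.22e-06) and 4.95 (adjusted p = 4.59e-07).

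Among 17 regulators of mitochondrial genes, 8 were higher and 4 lower in white cells, and 13 and 2 in brown cells. The coactivators Ppargc1a and Ppargc1b rose in both lines, by 2.46 and 3.28 in white (adjusted p = 1.04e-07 and 1.46e-09) and by 1.74 and 3.72 in brown cells (adjusted p = 1.97e-06 and 1.24e-09). Esrra, the estrogen-related receptor alpha, rose by 0.80 (adjusted p = 0.00313) and 1.19 (adjusted p = 0.000259). Tfam, the mitochondrial DNA packaging factor, fell by 0.46 (adjusted p = 0.000264) in white and rose by 0.66 (adjusted p = 2.2e-05) in brown cells, as did Gabpa, which fell by 0.34 (adjusted p = 0.0363) and rose by 0.44 (adjusted p = 0.0111). Pprc1 fell by 1.86 (adjusted p = 4.56e-08) in white and rose by 0.41 (adjusted p = 0.00347) in brown cells. Nrf1 differed by 0.05 in white cells (adjusted p = 0.79) and rose by 0.36 (adjusted p = 0.0377) in brown cells.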

How the data were processed

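RNA of 4 groups of 3 samples was read on 12 Affymetrix arrays, which probe the 3' ends of transcripts. The authors deposited linear signal intensities, and the submitters' processing notes name Affymetrix Expression Console. Neither the algorithm nor the version is given in the sources used here. With the top and bottom 2% of probe sets left out, the mean signal was equal on all arrays, so a change in total RNA per cell is hidden. The number of arrays and, for dim genes, the signal level limit precision.

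Of 45101 probe sets, 34958 carry 1 gene symbol, 932 several and 9211 are not listed. Genes above the 40th percentile of the array on at least 3 of 12 arrays were tested (13746, with 4448 removed as dim). Differences of log2(signal + 16), which understate changes of dim genes, were fitted over the whole table with limma 3.58.1 in R 4.3.3 (lmFit on 4 group means, eBayes, two-sided, Benjamini-Hochberg adjustment) and checked on simulated data. Promoter windows, tables and plots used Python 3.11.15, numpy 2.4.6, pandas 2.3.3 and matplotlib 3.10.9.

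Members, lists and tests were chosen with earlier results of these data known. Any member could be named; those with the largest and smallest difference in each complex and comparison, those called against most of their complex, and the dim ones were given in full, with up to 4 genes per comparison of other lists and Cyc1, Cycs, Ppargc1a, Ppargc1b, Esrra, Tfam and Nrf1. Alternatives varied the pseudocount, scaling, filter, probe set choice, moderation, threshold, replicate block and arrays used. Replicate numbers were not used to pair the arrays in the main fit.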

Additional observations from a re-analysis of the deposited data

Results flagged for a closer look

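The change with differentiation differed between the brown and the white line for 27 of the 56 members, by limma's test of that difference. This is close to the share of all genes tested, 50.9%. Each value here is the brown change minus the white change on log2(signal + 16). Among complex I assembly factors it was 1.56 for Ndufaf4, 0.96 for Ndufaf2, 0.87 for Ndufaf5, 0.47 for Ndufaf3, 0.44 for Ndufaf8, -0.71 for Ndufaf7 and -1.11 for Ndufaf1. Among complex I subunits with a larger change in brown cells it was 0.89 for Ndufa5, 0.79 for Ndufb1, 0.74 for Ndufs8, 0.70 for Ndufb10, 0.43 for Ndufa12, 0.38 for Ndufb5, 0.37 for Ndufa8 and 0.25 for Ndufs4. Among those with a larger change in white cells it was -0.81 for Ndufv3, -0.39 for Ndufa9, -0.36 for Ndufb3, -0.32 for Ndufs3, -0.31 for Ndufa3, -0.29 for Ndufc1 and -0.23 for Ndufab1. In complex II it was 0.73 for Sdhd, -0.41 for Sdhb and -0.38 for Sdha, and in complex III -0.25 for Uqcr10 and -0.30 for Uqcr11. Some of these calls did not hold under all of the 25 settings tried for them. With its sign kept, the call was lost under 18 settings for Ndufab1, 15 for Ndufa3, 15 for Uqcr10, 11 for Uqcr11, 6 for Ndufc1, 4 for Ndufs3, 3 for Ndufs4, 2 each for Ndufa12, Ndufaf8 and Ndufb3, and 1 each for Ndufa8 and Ndufb1. In addition, Ndufab1 and Uqcr10 changed sign under 2 settings and Sdha under 1. Ndufab1 (adjusted p = 0.276 and 0.461) and Sdha (adjusted p = 0.672) were then not called. Uqcr10 was then called in the opposite direction (0.41, adjusted p = 0.0149, and 0.73, adjusted p = 0.00113). The white and brown lines were induced with different mixtures, and adipocyte markers differed between the lines before induction.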

How the results depend on the processing

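The members' rise with differentiation stayed well above 0: over all settings the median difference of the 56 members was 0.59 to 0.91 in white and 0.70 to 0.96 in brown cells. Leaving out each array in turn gave 45 to 46 members higher and 1 to 2 lower in white cells, and 51 to 53 higher and 0 to 0 lower in brown cells. Of all genes, 3830 to 4173 were then higher and 4014 to 4324 lower in white cells, and 3318 to 3729 and 3920 to 4337 in brown cells. For the members the same ranges were 13 to 16 larger in brown and 8 to 14 larger in white cells for the difference between the lines, 24 to 28 higher and 4 to 7 lower for adipocytes, and 22 to 28 higher and 5 to 9 lower for preadipocytes. The ends 8, 7 and 5 came without white adipocyte replicate 1, white adipocyte replicate 3 and white preadipocyte replicate 3. Those of all genes were 2978 to 3162 and 3468 to 3684 between the lines, 3799 to 4139 and 3737 to 4085 for adipocytes, and 3824 to 4280 and 2959 to 3255 for preadipocytes. The count lower in white cells was 1 without white preadipocyte 3, white adipocyte 2 or 3, brown preadipocyte 1 or 2, or brown adipocyte 1 or 3. It was 5 under hybridization-control scaling and 1 with no filter, the mean of all probe sets, less specific probe sets left out, a threshold of 0.01, a replicate block, or only the arrays compared. Genes lower in white cells were, in that order, 5485 of 13746, 4203 of 18194, 3958 of 13125, 3688 of 12186, and 3686, 4243 and 4164 of 13746. With less specific probe sets left out, 44 of the members were tested.

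Counts larger in white cells fell from 13 to 6 (equal medians), 7 (hybridization controls) and 7 (threshold 0.01). Over all 13746 genes they fell from 3761 to 3135, 3330 and 2923 in the same order. In adipocytes the higher count was 42 after quantile normalization, and the lower count 8 (equal medians), 2 (hybridization controls), 2 (less specific probe sets left out) and 7 (intensity trend). In preadipocytes the higher count was 11 and the lower 20 with equal medians, and the lower 4 (quantile), 2 (hybridization controls), 4 (threshold 0.01) and 5 (only the arrays compared). Over all 13746 genes, 2886 were higher and 4669 lower with equal medians, and the other lower counts were 3651, 2494, 2596 and 3074 in the same order. Some medians changed sign by more than their spread between replicates. That of assembly factors in white cells was -0.069 (hybridization controls). That of complex II between the lines was 0.0090 (equal medians) and 0.20 (mean of probe sets). With equal medians that of complex III in adipocytes was -0.044. In preadipocytes those of complex I subunits, complex III and all members were then -0.15, -0.062 and -0.033. Smaller sign changes between the lines included -0.029 for complex I subunits (without white adipocyte replicate 3) and -0.013 for complex III (without brown preadipocyte replicate 1).

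Some genes called in neither the main nor the other setting changed sign. Examples are Ndufb7 in white cells (0.10, down to -0.17) and Ndufaf2 in brown cells (0.18, down to -0.059). The list that follows holds only genes called in the main or the other setting. Those that changed sign were Ndufa8 (-0.0069) and Ndufb2 (-0.37, less specific probe sets left out) in white and Ndufa4 (-0.041) in brown cells. Ndufa8 and Ndufa4 did so under hybridization controls. Between the lines, Ndufab1 (0.20), Sdha (0.088) and Uqcr10 (0.41) did so with the mean of probe sets, and Ndufab1 (0.22) and Uqcr10 (0.73) with less specific ones left out. In adipocytes, Ndufa4 (0.15) and Ndufc1 (0.17) did so after quantile normalization, Ndufb2 with the mean (0.35) and with less specific probe sets left out (1.08), and Uqcrb with the latter (0.23). In preadipocytes, Ndufa9 (-0.067), Ndufaf7 (-0.012), Ndufb11 (-0.20), Ndufc2 (-0.053), Ndufs4 (-0.22) and Sdhd (-0.21) did so with equal medians, and Ndufab1 (-0.028) with the mean. The cause was not tested. Arrays with the same replicate number did not deviate together (r from -0.03 to 0.07 over 18 pairs, 0 over 0.1); 7 of 12 arrays correlated best with their own number. With the replicate number as a block, members higher and lower were 46 and 1 in white cells, 51 and 0 in brown cells, 14 and 10 between the lines, 26 and 4 in adipocytes, and 27 and 7 in preadipocytes. Over all genes these counts were 4088 and 4243, 3668 and 4287, 3168 and 3695, 4110 and 3995, and 4206 and 3208. Ndufb4 and Ndufa4l2 were too dim to show small changes. Ndufb1 was brighter but varied between replicates, with a coefficient of variation of 22.7% in white preadipocytes.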

Other observations

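ATP synthase, which uses the gradient made by these complexes, rose with differentiation as well, by less at the median. Of 15 measured genes, 13 were higher and 1 lower in white cells (median 0.61), and 12 were higher and 2 lower in brown cells (median 0.50). Of all genes tested, 30.0% were higher and 31.2% lower in white cells, and 27.2% and 31.5% in brown cells. Atp5a1, a catalytic-head subunit, rose by 0.81 (adjusted p = 1.5e-06) and 1.17 (adjusted p = 1.28e-07). Atp5g1, 1 of the genes of the membrane ring, fell by 0.80 (adjusted p = 3.91e-06) in brown cells and differed by 0.16 (adjusted p = 0.0797) in white cells. Atpif1, the inhibitor of the enzyme, fell by 0.89 (adjusted p = 1.05e-05) and 0.29 (adjusted p = 0.0211).

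Of 14 genes of mitochondrial import, channels, chaperones and related proteins, 8 were higher and 2 lower in white cells (median 0.20). In brown cells 11 were higher (median 0.37). The shares of all genes tested were 30.0% higher and 31.2% lower in white cells, and 27.2% higher in brown cells. Citrate synthase, Cs, often used as a gauge of mitochondrial content, rose by 1.46 (adjusted p = 8.59e-08) and 1.64 (adjusted p = 5.31e-08). The import receptor Tomm22 fell by 0.37 (adjusted p = 0.000319) in white cells and differed by 0.13 (adjusted p = 0.101) in brown cells. Tomm70a fell by 0.51 (adjusted p = 0.00223) in white cells and differed by 0.10 (adjusted p = 0.46) in brown cells.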
